A study of Mus musculus with 12 samples.

Results

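The 40 genes described here are smooth muscle contractile genes, taken from a list that names the proteins of the contractile apparatus of smooth muscle, its anchors, its receptors and ion channels and its regulators. A gene was represented by the probe set that carries its symbol alone in the platform annotation and, where several did, by the one with the highest mean over all arrays. All 40 genes were measured, among 19938 genes tested. They were followed in intact jejunum, the part of the small intestine between duodenum and ileum, from mice with and without Fgfr1op, a centrosome gene now called Cep43.

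Smooth muscle forms the circular and longitudinal layers of the gut wall, the thin muscle sheet under the mucosa and the wall of its vessels. It contracts when calcium binds calmodulin and switches on the kinase Mylk, which phosphorylates the regulatory light chain Myl9 and lets the myosin Myh11 pull on actin. A phosphatase reverses this step, and desmin filaments and dense bodies pass the force through the cell. Most contractile genes are switched on by serum response factor with its coactivator myocardin (Myocd), at a DNA element called the CArG box.

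The groups were KO at days 6, 9 and 12 and WT at the same days of a scale counted from tamoxifen, with 2 mice in each of the 6 groups and 1 array per mouse. KO stands for loss of Fgfr1op induced by tamoxifen, a drug that switches on an inducible recombinase. The labels give 75 mg per kg of body weight for 5 injections into the abdomen. Strain, age, sex, the recombinase driver and the deleted exons have no entry in the labels. The dose and injections are entered for WT samples as for KO samples, but whether WT mice were in fact injected is not stated separately. RNA was extracted from full-thickness pieces with all their cell types, so fewer muscle cells and less RNA per muscle cell cannot be told apart. Values are deposited log2 signals of Affymetrix Mouse Gene 1.0 ST arrays, on which a difference of 1 is a doubling, and array medians lay between 5.95 and 6.02. Since nothing says how the mice of a group were related or housed, p-values measure the spread between these samples. The targeted gene, Cep43, read 6.60 and 6.63 in KO at day 9, against 6.96 and 7.05 in WT. At day 12 the signals were 6.97 and 6.74 in KO, against 6.83 and 7.04 in WT. It was lower in KO at day 9 (log2 difference -0.39, SE 0.11, limma adjusted p = 0.0184) and overlapped WT at day 12.

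Single arrays differed in smooth muscle signal within groups as well as between them. Each gene was set against its own mean over the 6 WT arrays, and the median over the 40 genes was taken per array. At day 6 the median was -0.60 and -0.79 on the KO arrays, against 0.50 and -0.08 on the WT arrays. At day 9 it was 0.20 and -0.50 on the KO arrays, against -0.55 and -0.05 on the WT arrays. At day 12 it was 0.90 and 0.41 on the KO arrays, against 0.10 and 0.15 on the WT arrays. KO thus lay under WT at day 6, overlapped it at day 9 and lay above it at day 12. The same median over all 19938 genes stayed between -0.01 and 0.03 on every array. The lowest WT array, replicate 1 of day 9, stood at -0.55, close to the KO arrays of day 6.

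**Figure D1:**
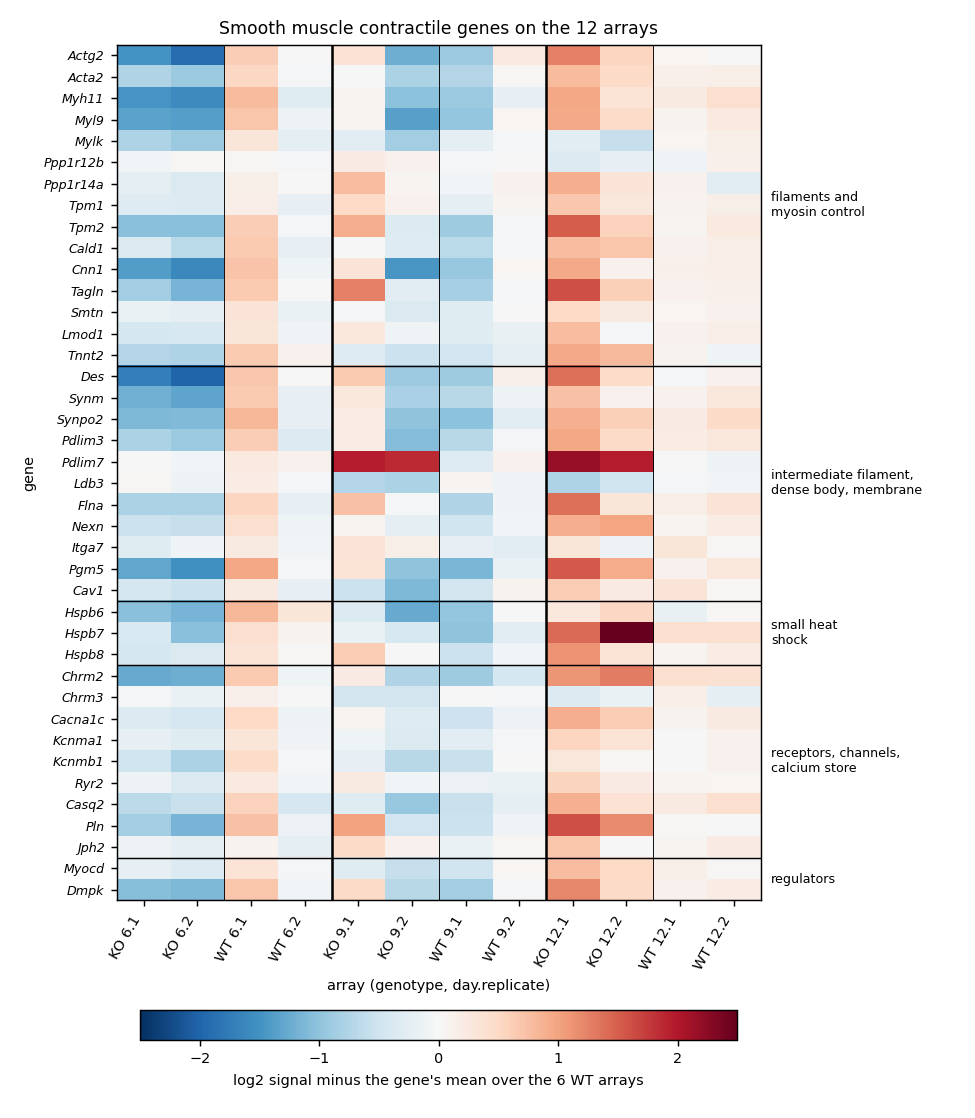
Colour gives the log2 signal of each of the 40 genes (rows, grouped by role) on each of the 12 arrays (columns, genotype with day and replicate), minus the gene's mean over the 6 WT arrays. Blue columns are the KO arrays of day 6, KO replicate 2 of day 9 and WT replicate 1 of day 9; the KO arrays of day 12 are mostly red, and Pdlim7 and Ldb3 break the columns.

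The genes moved as a block between mice of the same group. All 40 were higher in WT replicate 1 than in WT replicate 2 at day 6, by a median of 0.55. In KO at day 9, 39 of 40 were higher in replicate 1, by a median of 0.61, while 36 of 40 were higher in replicate 2 in WT at day 9, with a median of replicate 1 minus replicate 2 of -0.51. Both mice were close in KO at day 6 (median 0.10) and in WT at day 12 (median -0.08). The median size of this difference over all genes was 0.09 to 0.15 in the 6 groups. Pooled over the groups, 32 of the 40 genes were among the 10% of genes with the largest within-group SD. Myh11 (1.09 in WT at day 6), the calponin Cnn1 (1.78 in KO at day 9) and the actin Actg2 (-1.15 in WT at day 9) had the widest gaps of their groups.

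**Figure D2:**
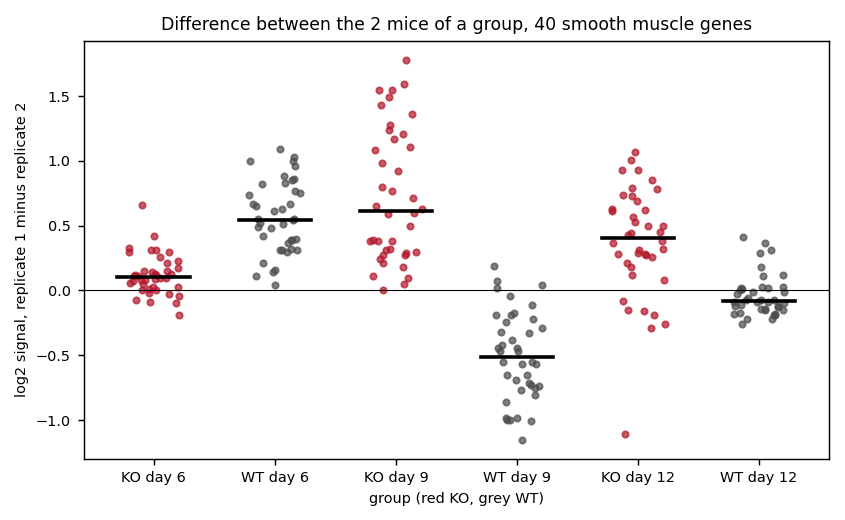
Each point is 1 of the 40 genes, and its height is the log2 signal of replicate 1 minus that of replicate 2 in the group on the horizontal axis (KO in red, WT in grey, bars at the median). The whole cloud sits above 0 in WT at day 6 and almost wholly above 0 in KO at day 9, and it sits mostly below 0 in WT at day 9.

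The promoters are shown because most contractile genes have a known upstream factor. Whether that factor had a part in the shared movement of the genes was not tested. RefSeq windows of build GRCm38.p6, 250 bases before to 50 bases after a transcript start, were found for 34 of the 40 genes, which gave 43 windows. The CArG box searched has CC, then 6 bases that are each A or T, then GG, and it reads the same kind of word on either strand. An exact box stood in 3 of the 43 windows (6.98%), in those of Ldb3 and Myl9, against 1.63% of all 32851 windows. The Ldb3 windows with it overlap and hold the same element, so 2 of the 34 genes had an exact box. With at most 1 C or G allowed among the 6 inner bases, 8 genes had one (Acta2, Cacna1c, Hspb6, Jph2, Ldb3, Myl9, Pdlim3 and Synm), in 25.6% of the genes' windows against 9.98% of all windows. Here too the same element of Ldb3, and likewise that of Jph2, was counted in overlapping windows. Overlapping windows were counted separately among all windows as well. The windows of the actin Acta2 (chr19:34255324-34255623, minus strand), of Myl9 (chr2:156775214-156775513, plus strand) and of the dense body gene Ldb3 (chr14:34588632-34588931, minus strand) follow 5′ to 3′, with the elements in capitals. Acta2 and Myl9 followed the block of genes, whereas Ldb3 did not.
Acta2: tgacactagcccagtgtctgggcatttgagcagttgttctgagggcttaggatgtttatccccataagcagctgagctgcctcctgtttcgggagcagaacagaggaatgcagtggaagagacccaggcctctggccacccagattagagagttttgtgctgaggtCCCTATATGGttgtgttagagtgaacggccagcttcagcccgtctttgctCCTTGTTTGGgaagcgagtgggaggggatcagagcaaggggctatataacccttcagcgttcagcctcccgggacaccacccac
Myl9: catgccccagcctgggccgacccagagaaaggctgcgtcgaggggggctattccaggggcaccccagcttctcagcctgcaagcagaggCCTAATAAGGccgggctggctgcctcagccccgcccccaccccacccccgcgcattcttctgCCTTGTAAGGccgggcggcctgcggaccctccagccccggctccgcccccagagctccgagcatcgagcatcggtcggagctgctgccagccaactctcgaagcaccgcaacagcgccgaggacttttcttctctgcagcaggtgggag
Ldb3: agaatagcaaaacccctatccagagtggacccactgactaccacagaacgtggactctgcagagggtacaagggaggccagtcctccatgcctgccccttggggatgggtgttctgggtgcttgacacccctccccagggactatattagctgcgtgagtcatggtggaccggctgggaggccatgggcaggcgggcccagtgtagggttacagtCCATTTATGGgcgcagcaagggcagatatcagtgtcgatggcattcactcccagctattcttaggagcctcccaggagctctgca
The Acta2 elements began 84 and 34 bases before the start and each had 1 inner C or G. Those of Myl9 began 161 bases (exact) and 99 bases (1 inner C or G) before it, and the exact element of Ldb3 began 35 bases before it. A match says that these letters stand in the window and nothing of binding.

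At day 6 the whole list lay lower in KO. All 40 log2 differences were below 0, with a median of -0.89, against a median of 0.0 over all genes. Only Tnnt2, Hspb6 and Chrm2 passed the test at an adjusted p under 0.05 and thus fell, and none rose. An unadjusted p under 0.05 was found for 30 of the 40 genes and for 2359 of all 19938 genes. Over all genes 0.431% fell and 0.597% rose in this comparison. Both KO arrays lay below both WT arrays of the day in 37 of 40 genes, which held for 20.9% of all genes, and below all 6 WT arrays in 23 genes, against 9.8% of all genes. Leaving out either KO array of day 6, or WT replicate 1 of day 6, left no call. Without WT replicate 2 of day 6 there were 5 calls, without either KO array of day 9 there were 9, and with either WT array of day 12 left out there was 1.

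At day 9 the list did not lie to one side. The median log2 difference was 0.20, with 24 genes above 0 and 16 below. Pdlim7 and Itga7 rose and Ldb3 and Chrm3 fell, against 12.6% of all genes that rose and 17.1% that fell. Both KO arrays lay above both WT arrays in 9 genes (34.6% of all genes) and below them in 4, Mylk, Ldb3, Cav1 and Chrm3 (31.1% of all genes). The median turned to -0.21 without KO replicate 1 of day 9 and to -0.14 without WT replicate 1 of day 9, and it was 0.54 without KO replicate 2 of day 9. Without KO replicate 2, 7 genes rose and 1 fell; without KO replicate 1, WT replicate 1, or either KO array of day 6, 1 rose; and without WT replicate 2, 1 rose and 1 fell.

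At day 12 the list lay mostly higher in KO. The median log2 difference was 0.50, with 35 genes above 0 and 5 below. Ppp1r14a, Tnnt2, Pdlim7, Nexn, Hspb7, Cacna1c, Pln and Myocd rose and Ldb3 fell; over all genes 13.7% rose and 13.7% fell. Both KO arrays lay above both WT arrays in 26 genes (31.6% of all genes), above all 6 WT arrays in 13 (19.3%) and below both WT arrays in 3, Mylk, Ppp1r12b and Ldb3 (26.6%). The share that rose, 8 of 40, is read against that background. Without KO replicate 2 of day 12, 13 genes rose; without KO replicate 1 or WT replicate 2 of day 12, 4 did, and without WT replicate 1 of day 12 or either KO array of day 6, 5 did. A 2nd gene fell when KO replicate 2, either WT array of day 12 or either KO array of day 9 was left out. Averaged over the days, with the 6 mice of each genotype, the median was -0.07, Pdlim7 rose and Mylk, Ldb3 and Chrm3 fell, against 15.7% of all genes that rose and 16.9% that fell. Without KO replicate 1 of day 9, 11 genes fell in that average, and 6 did without WT replicate 2 of day 6 and 5 without WT replicate 1 of day 9. A 2nd gene rose in it without KO replicate 2 of day 9 or either KO array of day 12.

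**Figure D3:**
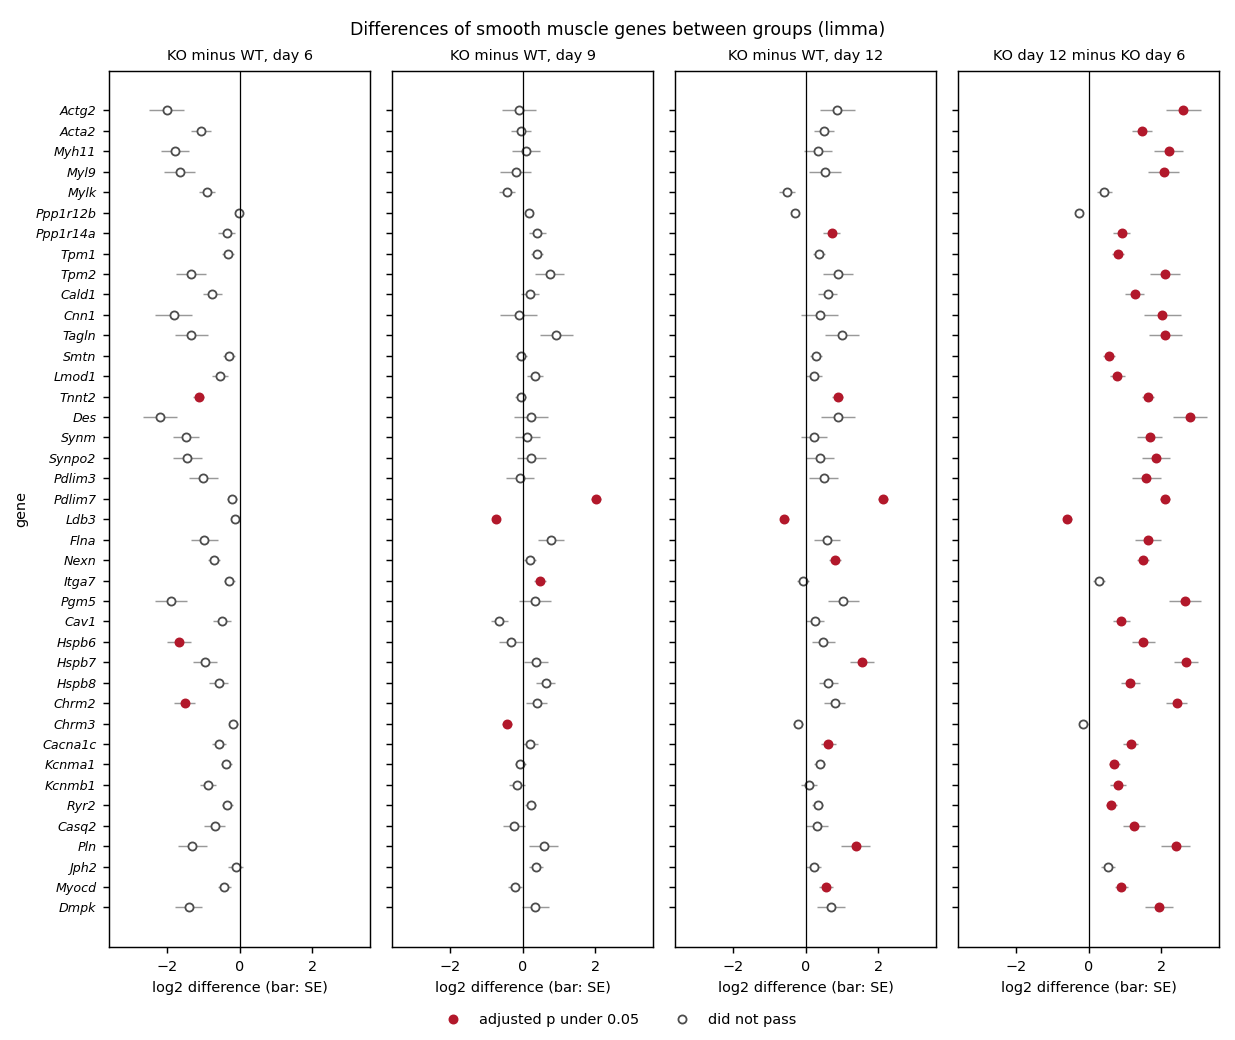
Each row is a gene, and the point is its log2 difference in the comparison named above the panel, with the SE as a bar, filled where the adjusted p was under 0.05. All points of the day 6 panel lie left of 0, from -2.19 to -0.01, and all but 3 points of the KO day 12 minus KO day 6 panel lie right of it, up to 2.78.

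The change over time within KO carried most calls. From day 6 to day 12 in KO, 34 of 40 genes rose and Ldb3 fell, with a median log2 difference of 1.48; over all genes 12.3% rose and 11.0% fell. The genes that did not pass were Mylk, Ppp1r12b, Itga7, Chrm3 and Jph2. Without KO replicate 1 of day 12, 22 genes rose. Between days 6 and 9, 9 genes rose and 1 fell with a median of 0.47 (10.0% and 14.5% of all genes), and between days 9 and 12, 16 rose and 1 fell with a median of 0.90 (14.1% and 8.81% of all genes). A moderated F test over the KO days called 36 of 40, against 37.6% of all genes.

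In WT no gene of the list passed between any days. From day 6 to day 9 all 40 genes had a difference below 0, with a median of -0.52. An unadjusted p under 0.05 was found for 10 of them and for 1891 of all 19938 genes. Limma called none of the 40, against 0.0602% of all genes. From day 9 to day 12 the median was 0.40, with 9 at an unadjusted p under 0.05 (1783 of all genes). None was called (0.0% of all genes). From day 6 to day 12 the median was -0.06, with 1 at an unadjusted p under 0.05 (1631 of all genes). Again none was called (0.00502% of all genes). The F test over the WT days called none, against 0.0201% of all genes called. It gave an unadjusted p under 0.05 for 6 of the 40 genes and for 2003 of all genes.

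The dependence of the KO minus WT difference on day was tested directly. The interaction F test called 19 of 40 genes, against 18.5% of all genes. From day 6 to day 12 the difference rose in 22 genes, with a median of 1.5 over the 40 genes, against 5.64% of all genes. From day 6 to day 9 it rose in 10 genes and fell in 1, against 3.52% and 9.19% of all genes, and from day 9 to day 12 it rose in 1, against 4.06%. Without KO replicate 2 or WT replicate 1 of day 6 the F test called 5 genes, without KO replicate 1 of day 6 or WT replicate 1 of day 12 it called 8, and without WT replicate 2 of day 12 it called 9. The day 12 minus day 6 count was 9 without KO replicate 2 or WT replicate 1 of day 6 or KO replicate 1 of day 12, 10 when either WT array of day 12 was left out and 12 when KO replicate 1 of day 6 was.

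The contractile filaments of the list were the actins Actg2 and Acta2 and the myosin Myh11. Actg2, the actin of gut smooth muscle, read 7.77 and 7.35 in KO at day 6, against 9.88 and 9.25 in WT. Its day 9 signals were 9.62 and 8.03 in KO and 8.35 and 9.5 in WT, and its day 12 signals were 10.52 and 9.79 in KO and 9.30 and 9.27 in WT. Both KO mice were thus below every WT mouse at day 6, overlapped WT at day 9 and were above the WT mice of the day at day 12. The difference of -2.01 (SE 0.48) at day 6 did not pass (adjusted p = 0.081), nor did that of 0.87 at day 12, while the rise of 2.60 (SE 0.48) in KO from day 6 to day 12 did (limma adjusted p = 0.00203). Myh11, the smooth muscle myosin heavy chain, read 9.04 and 8.92 in KO at day 6, against 11.31 and 10.22 in WT. At day 12 it read 11.49 and 10.87 in KO, against 10.75 and 10.95 in WT. The groups were apart at day 6 and overlapped at day 12. Its KO rise from day 6 to day 12 was 4.59-fold (log2 2.20, SE 0.39, adjusted p = 0.00177). Acta2, the alpha actin of vascular and visceral muscle, ran the course of Actg2 at smaller size. It read 10.82 and 10.66 in KO at day 6, against 12.08 and 11.53 in WT. At day 12 it read 12.36 and 12.05 in KO, against 11.69 and 11.71 in WT, with no overlap. Its KO rise was 1.46 (SE 0.28, adjusted p = 0.00275), and its mean distance from the list's median profile, 0.09, was the lowest of the 40 genes.

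**Figure D4:**
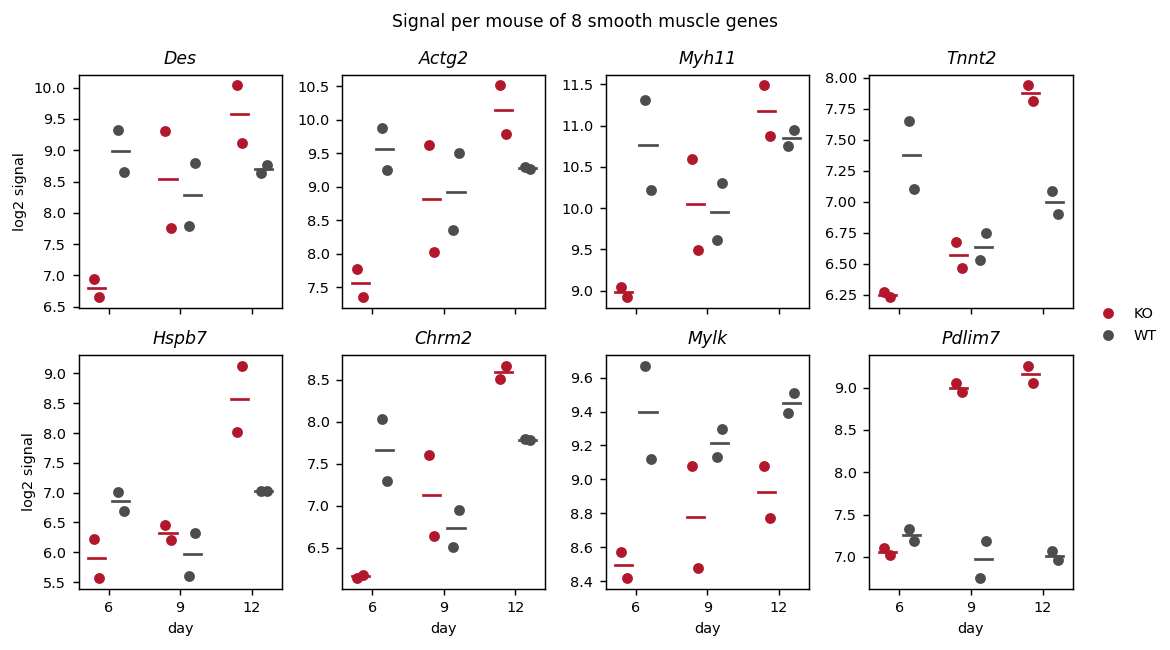
Points are the log2 signals of single mice for 8 genes at days 6, 9 and 12, KO in red and WT in grey, with the group mean as a bar. Des, Actg2, Myh11, Tnnt2 and Chrm2 have their lowest group mean in KO at day 6 and their highest in KO at day 12, the mean of Hspb7 is highest in KO at day 12, Mylk is lower in KO on every day, and Pdlim7 is high in KO at days 9 and 12 alone.

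The genes that set myosin phosphorylation differed in course. Mylk, the kinase of the light chain, read 8.57 and 8.42 in KO at day 6, against 9.67 and 9.12 in WT. It read 9.08 and 8.48 in KO at day 9, against 9.13 and 9.30 in WT. Its signals were 9.08 and 8.77 in KO at day 12, against 9.39 and 9.51 in WT. KO thus lay below WT on each day with no overlap. The single days did not pass, with log2 differences of -0.90 (SE 0.21), -0.43 and -0.52 and adjusted p between 0.072 and 0.14, but the average over days fell by 0.62 on the log2 scale (SE 0.12, limma adjusted p = 0.00172). Myl9, its substrate, read 8.43 and 8.40 in KO at day 6, against 10.48 and 9.65 in WT. At day 12 the signals were 10.73 and 10.22 in KO, against 9.87 and 10.02 in WT. It lay below WT at day 6 and above WT at day 12, and rose 4.17-fold in KO from day 6 to day 12 (log2 2.06, SE 0.43, adjusted p = 0.00444). Ppp1r14a, an inhibitor of the myosin phosphatase, read 7.98 and 7.40 in KO at day 12, against 7.17 and 6.80 in WT, and rose by 0.71 (SE 0.23, adjusted p = 0.0398). That call was lost when 8 of the 12 arrays were left out in turn. In KO between days 6 and 12 it rose by 0.91 (SE 0.23, adjusted p = 0.0129), which did not pass without KO replicate 2 of day 6 or KO replicate 1 of day 12.

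Ppp1r12b, a subunit that targets the same phosphatase to myosin, moved little on the probe set used. Its signals lay between 7.52 and 8.08 on all arrays, with differences of -0.01, 0.16 and -0.29 at days 6, 9 and 12, none of which passed. It had 7 probe sets, and they disagreed. Their day 12 differences ran from -0.76 to -0.03 and their day 9 differences from -0.74 to 0.16, so the gene's direction at day 9 depends on the probe set. With the mean of all probe sets the gene passed as lower in KO at day 12 and in the average over days. With the filter on dim genes it also passed as lower at day 12.

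Proteins along the actin filament followed the block with different amplitude. Cnn1, a calponin that binds actin and slows myosin, read 7.57 and 7.37 in KO at day 6, against 9.70 and 8.87 in WT. Transgelin (Tagln), a related actin-binding protein, read 9.78 and 8.77 in KO at day 12, against 8.27 and 8.29 in WT. Each left a clear gap between KO and WT on those days, yet neither passed on any day. Both rose in KO from day 6 to day 12, by 2.03 (SE 0.51) and 2.11 (SE 0.46). The tropomyosin Tpm2 rose by 2.09 over the same days and its relative Tpm1 by 0.81. Caldesmon (Cald1), which ties actin to myosin, rose by 1.26, leiomodin (Lmod1), which starts new actin filaments, by 0.79, and smoothelin (Smtn) by 0.56. Of the 15 genes of filaments and myosin control, 13 rose in KO between those days, with a median over the 15 of 1.46, against 12.3% of all genes that rose.

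Tnnt2, the troponin T of heart muscle, passed at days 6 and 12 in opposite directions. It read 6.27 and 6.23 in KO at day 6, against 7.65 and 7.10 in WT. At day 9 it read 6.68 and 6.47 in KO, against 6.53 and 6.75 in WT, and at day 12 it read 7.94 and 7.81 in KO, against 7.09 and 6.90 in WT. The KO mice were below WT, then among them, then above. It fell 2.18-fold at day 6 (log2 -1.13, SE 0.16, adjusted p = 0.00968) and rose 1.84-fold at day 12 (log2 0.88, adjusted p = 0.00161). The day 6 call was lost without either KO array or WT replicate 1 of that day, and the day 12 call stayed whichever array was left out. Among 7 heart muscle genes beyond these 40, the atrial light chain Myl7 rose at day 9 (0.45) and the cardiac actin Actc1 fell in KO between days 6 and 12 (-0.52). Myh6, Myh7 and Tnni3, which define cardiac muscle, stayed between 5.14 and 6.06 on all arrays, and none of the 3 passed in any comparison of genotype or in KO between days 6 and 12.

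Both intermediate filament genes rose in KO between days 6 and 12. Desmin (Des), the muscle filament protein, read 6.95 and 6.65 in KO at day 6, against 9.33 and 8.66 in WT. Its day 9 signals were 9.31 and 7.76 in KO and 7.79 and 8.79 in WT, and its day 12 signals were 10.04 and 9.11 in KO and 8.63 and 8.77 in WT. KO was lowest of all at day 6, overlapped WT at day 9 and was above the WT mice of the day at day 12. The day 6 difference of -2.19 (SE 0.47) missed the threshold (adjusted p = 0.0561), and the KO rise between days 6 and 12 was 6.86-fold (log2 2.78, SE 0.47, adjusted p = 0.00122). Synemin (Synm), which joins desmin filaments, read 5.91 and 5.80 in KO at day 6, against 7.76 and 6.91 in WT, and rose by 1.68 in KO by day 12. Its day 12 signals, 7.85 and 7.22 in KO and 7.21 and 7.39 in WT, overlapped.

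The proteins of dense bodies and membrane plaques divided. Pgm5 (aciculin), a plaque protein that lacks enzyme activity, read 7.14 and 6.91 in KO at day 6, against 9.41 and 8.41 in WT. Its signals were 9.99 and 9.38 in KO at day 12, against 8.56 and 8.73 in WT. It followed desmin and rose 6.31-fold in KO between those days (log2 2.66, SE 0.44, adjusted p = 0.00108). The actin bundler Synpo2 rose by 1.85, the actin crosslinker Flna by 1.63 and the alpha-actinin partner Pdlim3 by 1.59 over the same days. Nexilin (Nexn), an actin-binding protein, read 7.12 and 7.20 in KO at day 12, against 6.29 and 6.41 in WT. It lay above all WT arrays and rose 1.75-fold (log2 0.81, SE 0.17, adjusted p = 0.00466). Caveolin (Cav1), the coat protein of caveolae, was out of step at day 9, with 8.02 and 7.43 in KO and 8.09 and 8.64 in WT, a log2 difference of -0.64 that did not pass. The laminin receptor Itga7 rose by 0.47 at day 9 (adjusted p = 0.0453), a call lost with quantile normalisation and when 6 of the 12 arrays were left out in turn.

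Pdlim7 (Enigma) and Ldb3 (ZASP), relatives of Pdlim3 that also carry PDZ and LIM domains, went in opposite directions. Pdlim7 read 7.10 and 7.02 in KO at day 6, against 7.33 and 7.19 in WT. It read 9.05 and 8.95 in KO at day 9, against 6.75 and 7.19 in WT. At day 12 the signals were 9.26 and 9.06 in KO, against 7.07 and 6.96 in WT. KO was thus slightly under WT at day 6 and far above it later, with mice of a group close together. It rose 4.08-fold at day 9 (log2 2.03, SE 0.14, adjusted p = 1.35e-06) and 4.41-fold at day 12 (log2 2.14, SE 0.14, adjusted p = 6.39e-07). Ldb3, whose promoter window holds an exact CArG box, read 7.38 and 7.32 in KO at day 9, against 8.19 and 8.0 in WT. Its signals were 7.33 and 7.62 in KO at day 12, against 8.07 and 8.05 in WT. Its day 6 signals were 8.14 and 7.99 in KO and 8.29 and 8.08 in WT. It fell by 0.74 (SE 0.12, adjusted p = 0.000769) and by 0.59 (adjusted p = 0.00332) on the later days without following the differences between mice. These 2 genes had mean distances from the list's median profile of 0.71 and 0.52, the highest of the 40, against a median of 0.26 over the list and 0.45 over all genes. The profile was taken from the list itself, which draws the list's distances down.

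All 3 small heat shock proteins of the list rose in KO between days 6 and 12, against 12.3% of all genes. Hspb6, which binds actin regulators in muscle when phosphorylated, read 7.83 and 7.72 in KO at day 6, against 9.71 and 9.18 in WT. It read 9.14 and 9.40 in KO at day 12, against 8.68 and 8.90 in WT. The KO mice were below every WT mouse at day 6. It fell 3.18-fold at day 6 (log2 -1.67, SE 0.32, adjusted p = 0.0427), a call lost when 6 of the 12 arrays were left out in turn. Hspb7, a chaperone of heart and muscle filaments, read 8.02 and 9.13 in KO at day 12, against 7.02 and 7.02 in WT. Both KO mice were above all WT mice, and replicate 1 minus replicate 2 was -1.11, unlike most of the list. It rose 2.94-fold (log2 1.56, SE 0.33, adjusted p = 0.00428), and the call held with any array left out. Hspb8 rose by 1.14 in KO between days 6 and 12 and passed on no single day against WT.

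The receptors that nerves use to make the muscle contract differed from each other. Chrm2, the more abundant muscarinic receptor of gut muscle, read 6.14 and 6.18 in KO at day 6, against 8.04 and 7.29 in WT. At day 9 it read 7.61 and 6.64 in KO, against 6.51 and 6.95 in WT, and at day 12 it read 8.51 and 8.67 in KO, against 7.80 and 7.78 in WT. KO was below every WT mouse at day 6 and above every WT mouse at day 12. It fell 2.85-fold at day 6 (log2 -1.51, SE 0.29, adjusted p = 0.042), a call lost with quantile normalisation and when 7 of the 12 arrays were left out in turn; the day 12 difference of 0.80 did not pass (adjusted p = 0.062). Chrm3, the receptor that triggers contraction directly, read 6.48 and 6.49 in KO at day 9, against 6.94 and 6.90 in WT. KO was lower than WT there by 0.43 on the log2 scale (log2 difference -0.43, SE 0.13, adjusted p = 0.0251), and it did not move with Chrm2: in KO between days 6 and 12 Chrm2 rose by 2.43 and Chrm3 differed by -0.15, which did not pass. The day 9 call of Chrm3 was lost without any array of that day, while its fall in the average over days (-0.27, SE 0.07, adjusted p = 0.014) held with any array left out.

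Among calcium handling genes, Cacna1c and Pln rose against WT at day 12. Cacna1c, the pore of the L-type calcium channel, read 7.05 and 6.77 in KO at day 12, against 6.22 and 6.36 in WT, and rose by 0.62 (SE 0.20, adjusted p = 0.0391). Phospholamban (Pln), the brake on the calcium pump of the store, read 7.71 and 7.27 in KO at day 12, against 6.12 and 6.10 in WT. It rose 2.60-fold (log2 1.38, SE 0.40, adjusted p = 0.0244), and within KO it had risen by 1.27 between days 6 and 9 (adjusted p = 0.0395). In both genes the KO mice of day 12 lay above all 6 WT mice. The calls were lost when 5 arrays (Cacna1c) or 3 arrays (Pln) were left out in turn, KO replicate 1 and both WT arrays of day 12 among them. The release channel Ryr2 rose in KO from day 6 to day 12 by 0.62, the calcium buffer Casq2 by 1.24, the potassium channel pore Kcnma1 by 0.70 and its partner subunit Kcnmb1 by 0.80, while the junction protein Jph2 did not pass. A second, dimmer probe set of Kcnma1 disagreed with the one used, with day differences of -2.21, 1.72 and -2.26 against -0.37, -0.07 and 0.38. With the mean of both probe sets the KO difference between days 6 and 12 was 0.25 and did not pass (adjusted p = 0.882).

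Myocd, the coactivator that drives the contractile program, read 6.68 and 6.55 in KO at day 6, against 7.22 and 6.84 in WT. At day 12 the signals were 7.65 and 7.38 in KO, against 7.03 and 6.91 in WT. KO lay below WT at day 6 and above every WT mouse at day 12. It rose 1.46-fold at day 12 (log2 0.55, SE 0.19, adjusted p = 0.0482), a call lost when 7 of the 12 arrays were left out in turn, and by 0.90 in KO between days 6 and 12. Dmpk, a muscle kinase named for myotonic dystrophy, read 7.73 and 7.67 in KO at day 6, against 9.49 and 8.72 in WT, and 9.26 or more in KO at day 12, against 8.89 and 8.98 in WT. It passed on no day and rose 3.82-fold in KO between days 6 and 12 (log2 1.93, adjusted p = 0.00339).

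Of 62 further smooth muscle genes, 57 were measured. Their median log2 difference was -0.13 at day 6, with 1 rise (Ckb, brain creatine kinase, 1.31) and 1 fall (Rbpms2, an RNA-binding protein of gut muscle, -0.91), against 0.597% and 0.431% of all genes. At day 12, 17 of the 57 rose and 3 fell, with a median of 0.25, against 13.7% of all genes in each direction. The integrin Itga5 (1.84), the RNA-binding protein Rbpms (1.80), Filip1l (1.73) and alpha-actinin Actn1 (1.5) had the largest rises. In KO between days 6 and 12, 31 rose and 3 fell, with a median of 0.52, against 12.3% and 11.0% of all genes. Of the partners of Myocd, serum response factor (Srf) rose by 0.33 at day 9, its coactivator Mrtfa by 0.43 at day 12 and its coactivator Mrtfb by 0.84 at day 9 and by 0.91 in KO between days 6 and 12. In KO between days 6 and 12 Srf differed by -0.03 and Mrtfa by 0.28, and neither passed. At day 12 the differences of Srf (0.19) and Mrtfb (0.22) did not pass either. Of the forkhead factors of gut mesenchyme, Foxf1 rose by 0.47 at day 12 and Foxf2 fell at day 9 (-0.35).

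By the mean absolute difference of centred log2 values over the 12 arrays, 13 of the 40 genes nearest to the list's median profile and 18 of the nearest 100 were members. The profile is the median of the members themselves, so they lie near it partly by construction. These counts therefore only describe the list. The nearest genes outside the list were Foxp2, a forkhead factor, at 0.12, and Aoc3, an amine oxidase of muscle and vessel surfaces, at 0.12. Prkg1, the cGMP-dependent kinase that relaxes smooth muscle, followed at 0.14, and its substrate Mrvi1 (now Irag1) at 0.15. Gnao1, a G protein subunit, and Rbpms2 were at 0.15, and Dcbld2, a membrane receptor, and the calcium exchanger Slc24a3 at 0.16. Foxp2 read 5.84 and 5.76 in KO at day 6, against 6.98 and 6.33 in WT. Its signals were 6.92 and 6.81 in KO at day 12, against 6.51 and 6.49 in WT. It lay below WT and then above it, as the list did. Foxp2 was picked for its nearness to the list's profile on these arrays, so this course follows from the choice. At the other end, Hspb7 (0.40), Ppp1r12b (0.45), Chrm3 (0.47), Ldb3 and Pdlim7 were the members farthest from the profile.

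Markers of other cells were read on the same arrays. Pericyte and vascular mural genes, 8 in all, had array medians from -0.12 to 0.56 in KO and from -0.26 to 0.17 in WT. Of these, Rgs5, a signalling regulator of pericytes, read 7.54 and 7.44 in KO at day 6, against 9.56 and 8.66 in WT, which followed the smooth muscle list, while Kcnj8 and Abcc9, a potassium channel and its partner, rose at day 9 (1.32 and 1.20) and at day 12 (1.57 and 1.11). Fibroblast genes, 8 in all, had medians from -0.12 to 0.66 in KO and from -0.42 to 0.23 in WT. In KO between days 6 and 12, 5 of the 8 rose and Fbln1 fell, with a median difference of 0.69, against 12.3% and 11.0% of all genes. Mesothelial genes, 6 in all and markers of the sheet that covers the muscle, had medians of -0.09 and -0.27 in KO at day 6, against -0.06 and -0.12 in WT. Their medians were 0.62 and 0.50 in KO at day 12, against 0.08 and 0.07 in WT. Between days 6 and 12 in KO, 5 of the 6 rose, with a median difference of 0.78, against 12.3% of all genes that rose. Of 6 leukocyte genes, Ptprc, Cd3e and Adgre1 fell at day 12 (-1.20, -1.03 and -0.38), against 13.7% of all genes that fell. The array medians of endothelial genes (9) ran from -0.17 to 0.22 in KO and from -0.19 to 0.11 in WT, and those of cardiac genes (7) from -0.11 to 0.24 in KO and from -0.06 to 0.06 in WT. The medians of 13 enteric neuron and glia genes lay between -0.06 and 0.16 in KO and between -0.07 and 0.08 in WT, and those of 10 epithelial genes between -0.24 and 0.19 in KO and between -0.13 and 0.09 in WT. Single genes of these lists moved further: the neural receptor Ret rose at days 9 and 12 (2.21 and 2.47), the epithelial keratin Krt18 rose (1.71 and 1.54) and the microvillus protein Vil1 fell (-0.85 and -0.96). Most genes of the neural and cardiac lists were dim, with signals under 6.43, the median of the gene means, on most arrays. A flat median of these dim lists therefore says little about the cells they mark. None of the 13 marker lists had a span between arrays as wide as that of the smooth muscle list followed here, -0.79 to 0.90. The further smooth muscle genes did not have it either. Their array medians ran from -0.26 to 0.59 for structure, from -0.35 to 0.24 for signalling and from -0.06 to 0.32 for regulators. The wide span is thus stated for the median of the list alone. Single genes of the further lists, among them Prkg1, Mrvi1 and Rbpms2, lay near the list's profile. Why the medians of the further lists spanned less was not tested. Interstitial cells of Cajal, the pacemakers between muscle layers, gave -0.34 and -0.38 in KO at day 6, against 0.12 and -0.14 in WT (5 genes). At day 12 they gave 0.31 and 0.19 in KO, against 0.07 and 0.06 in WT. Of these genes, Ano1 read 6.49 and 6.37 in KO at day 6, against 7.17 and 6.72 in WT. That difference did not pass (limma adjusted p = 0.296), while Ano1 rose by 1.19 in KO between days 6 and 12. Kit, which also marks mast cells, fell on every day (-0.51, -1.0 and -0.68). Non-muscle actomyosin genes, 10 in all, had medians of 0.10 to 0.61 in KO and of -0.13 to 0.06 in WT, with rises of Tpm4 on every day (0.62, 1.38 and 1.28). Their part in the smooth muscle differences was not tested.

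**Figure D5:**
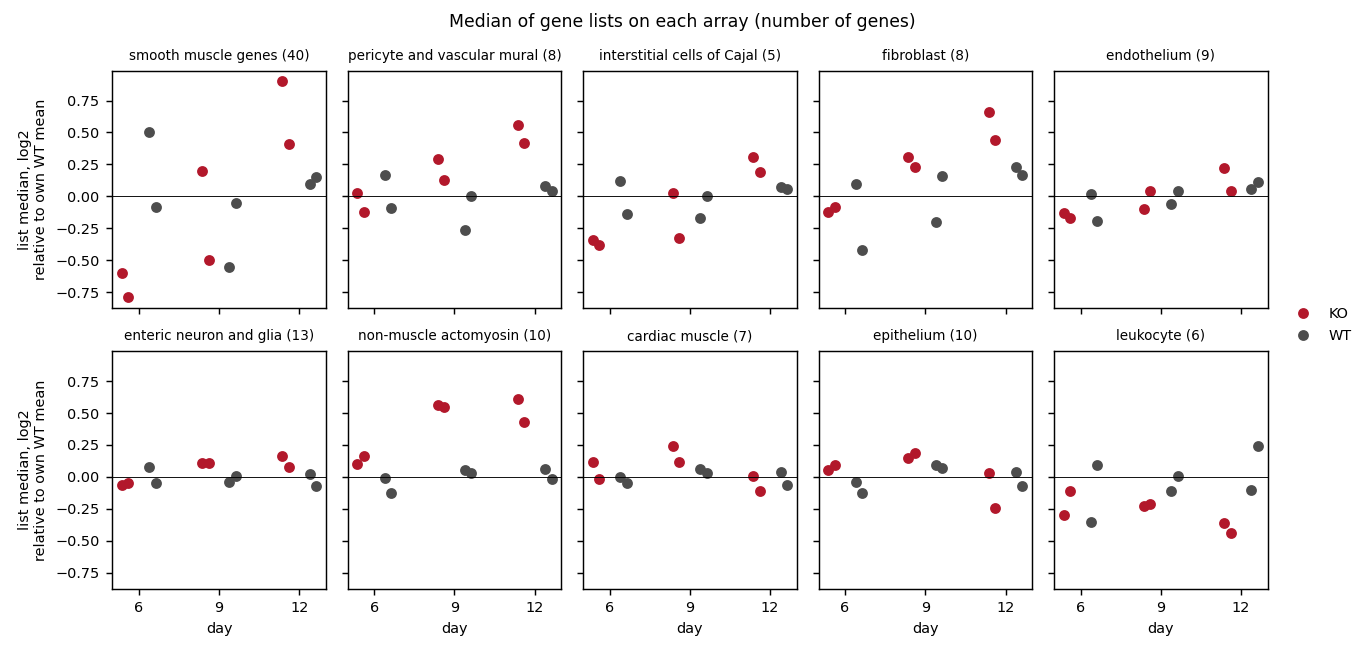
Each point is 1 array, KO in red and WT in grey, at days 6, 9 and 12, and its height is the median over a list of genes of the log2 signal minus the gene's own mean over the 6 WT arrays. The smooth muscle panel spans -0.79 to 0.90 and has its lowest KO points at day 6, while the epithelial, cardiac and neural panels stay within 0.24 of 0. Most genes of the cardiac and neural lists were dim.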

How the data were processed

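The authors deposited log2 signals for 35556 probe sets on 12 arrays, and these were used as deposited. Per the submitters' processing notes, limma and R 3.5 were used; how background was corrected and signals were summarised and normalised, and on which genome build, is not given in the sources used here. RNA was labelled with biotin and hybridised to Affymetrix Mouse Gene 1.0 ST arrays, per the labels' protocols. Values ran from 2.29 to 14.13, none was missing, and no arrays were identical. With 12 arrays the precision is limited: the median SE over genes was 0.115 for a difference at 1 day and 0.0663 for the average over days.

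In the platform annotation, 21789 probe sets had 1 gene symbol and 1621 had several, and 12146 are unnamed here. The probe set with the highest mean was kept for each of the 999 symbols with more than 1, which gave 19938 genes. No filter on dim genes was applied. One mean per genotype and day was fitted to all 12 arrays with lmFit and eBayes of limma 3.58.1 in R 4.3.3 (6 residual and 5.23 prior degrees of freedom, two-sided). P-values were adjusted over all genes by Benjamini-Hochberg, with calls at an adjusted p under 0.05, and adjusted p in the text are these. Tested on simulated data for day 6, the fit recovered 51.7% of 1.5-fold, 89.1% of 2-fold and 98.5% of 4-fold changes among 19938 genes. These rates cannot be taken over to the smooth muscle list, whose genes varied more between mice of a group. The median within-group SD was 0.34 for the list, against 0.12 for all genes. In the measured data Des (4.57-fold lower) and Actg2 (4.03-fold lower) did not pass at day 6.

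The members, gene lists and tests were chosen with earlier results of these data known, so no p is given for a list. Text names all members and Cep43, of each other list up to 4 genes among those with the largest differences in the average or at the day described, and the 8 genes nearest to the list's profile. Itga8 and Synpo were chosen after their values were seen, and cardiac markers Myh6, Myh7 and Tnni3 as the defining ones. Alternatives were array medians set equal, quantile normalisation, a filter on dim genes (means under the 25th percentile left out), the mean of probe sets, the arrays of 1 day alone, the replicate number as a block, a mean-variance trend, array weights and each array left out. The labels give no batch, slide or scan date. Promoters are from RefSeq (GRCm38.p6), matched by symbol; Nexn, Actg2, Myh11, Itga7, Myocd and Tagln are named only.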

Additional observations from a re-analysis of the deposited data

Results flagged for a closer look

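The KO minus WT difference changed with day in 19 of the 40 smooth muscle genes by the limma interaction F test, against 18.5% of all genes. Among filament genes, the adjusted p was 0.000506 for Tnnt2, 0.0282 for Actg2, 0.0294 for Tpm2, 0.0349 for Myh11, 0.0371 for Tagln and 0.0411 for Acta2. Among anchors it was 2.44e-05 for Pdlim7, 0.00477 for Nexn, 0.0164 for Des, 0.0165 for Pgm5 and 0.0492 for Synm. For the small heat shock genes it was 0.0102 (Hspb7), 0.0182 (Hspb6) and 0.0496 (Hspb8). For receptors, channels and the calcium store it was 0.00531 (Chrm2), 0.017 (Pln) and 0.0315 (Cacna1c), and for the regulators 0.0352 (Dmpk) and 0.0472 (Myocd). In all 19 the day 6 difference was below 0 and the day 12 difference above 0. This is not particular to them, since all 40 genes were below 0 at day 6 and 35 of 40 were above 0 at day 12. With 2 mice in a group, single mice could not be tested as outliers of their group.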

How the results depend on the processing

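With only the arrays of the day compared, 9 members were lower in KO at day 6 in place of 3, and with array weights 10 were. At day 12, 2 members were lower in place of 1 with the filter on dim genes, with the mean of all probe sets and with only that day's arrays. No other change of scaling, filter, probe set, arrays or spread moved a count over the members by more than 1.5 times.

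With 1 array left out at a time, the number lower at day 6 ran from 0 to 9. At day 9 the number higher ran from 1 to 7, the number lower from 1 to 3 and the median log2 difference from -0.21 to 0.54. At day 12 the number higher ran from 4 to 13 and the number lower from 1 to 2. In the average over days these ran from 1 to 2 and from 3 to 11. The interaction F test called 5 to 26 members, the KO rise between days 6 and 12 held for 22 to 36, and the day 12 minus day 6 difference was higher in 9 to 28 and lower in 0 to 1, with a median of 1.11 to 1.81. Over single genes and all alternatives, 1684 of 1893 repeats gave the same verdict, 159 lost a call, 50 gained one and 0 turned a call round. Quantile normalisation ended the day 6 call of Chrm2 and the day 9 call of Itga7. Array weights ended the day 12 calls of Cacna1c and Myocd, and the arrays of day 12 alone that of Ppp1r14a.

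The labels number the mice of each group 1 and 2. Deviations of same-numbered arrays from their group means correlated between -0.152 and 0.347 over 15 pairs of groups, so the numbers were not taken to pair samples. With the replicate number as a block, 2 members were lower at day 6 (that of Hspb6 was lost), 2 were higher and 3 lower at day 9 (Cav1 was added), 9 and 1 at day 12, and 1 and 3 in the average over days. With this block the interaction F test called 23, the KO F test 36 and the WT F test 0, 34 rose and 1 fell in KO between days 6 and 12, and 25 had a higher day 12 minus day 6 difference.

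Each group held 2 mice, signals were not set against background, and low signals understate folds.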

Other observations

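The channel subunit Cacna2d1, which helps the calcium channel reach the membrane, read 8.03 and 7.89 in KO at day 12, against 6.62 and 6.58 in WT, and rose by 1.36 (SE 0.16, limma adjusted p = 6.74e-05). In the same mice the integrin Itga8 fell by 1.02 on the log2 scale (limma adjusted p = 0.000509), with 6.31 and 5.98 in KO and 7.33 and 7.0 in WT, whereas Itga5 rose by 1.84. Synpo, a relative of Synpo2, read 5.71 and 5.95 in KO at day 12, against 6.96 and 6.78 in WT, and fell by 1.04 on the log2 scale, while Synpo2 was 0.40 higher and did not pass.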
